A study of Homo sapiens with 6 samples.

Results

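The genes described here encode 10 transcription factors and related proteins of the immediate early response: the AP-1 subunits FOS, FOSB, FOSL2, JUN, JUNB and JUND, the zinc finger factors EGR1, KLF4 and KLF6, and the nuclear protein IER2. They were taken by symbol from the deposited table, where all 10 had a row among 16311 genes. RNA sequencing was done on LNCaP, a line established from a human prostate cancer that depends on androgen. The untreated group and the group given FIR have 3 libraries each; FIR is a term the labels do not spell out, the series title speaks of radiation, and its doses summed to 40 Gy. The labels give no interval between the last dose and RNA isolation and no passage number, and all cells are of 1 line, so nothing here extends beyond LNCaP. The replicates are numbered 1 to 3 in each group without saying how cultures were separated, so p-values measure only how these libraries vary, and that variation may be technical.

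Immediate early genes are switched on within minutes of a growth signal, a stress or a change of medium, without new protein synthesis, and most of their transcripts are short-lived. FOS and JUN proteins pair through leucine zippers to form AP-1, which binds the sequence TGANTCA, where N is any base; JUN proteins can pair with each other, while FOS proteins need a partner. EGR1 and the KLF proteins bind GC-rich DNA through zinc fingers. FOS and EGR1 respond fast and fade within hours, FOSL2 and JUND are known for longer-lived expression, and all such genes can respond to the handling of cells at harvest, which is why every library is shown.

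FIR cells carried more RNA of KLF6, FOSL2, JUN and EGR1, between 2.82 and 4.61 times the untreated mean, and slightly more of IER2. FOS also stood higher, but it is in the table only through the FIR group, so its value is a description. JUND, JUNB, FOSB and KLF4 did not pass the test. JUND was the most abundant member per length in both groups. In counts, 6 of 10 members were higher and 0 lower at an adjusted p of 0.05 in edgeR's quasi-likelihood test, with p-values adjusted by Benjamini-Hochberg over all 16311 genes. Of all genes, 25.4% were called higher and 23.4% lower, 48.7% in either direction. The FIR libraries lay above all untreated libraries for 6 members and the groups overlapped for 4; of all genes, 29.4% lay apart upward, 27.5% downward and 56.9% in either direction. At least 2 times higher were 5 of 10 members, against 8.62% of all genes. FOS has a row only because the FIR libraries reach a low level that all rows meet, 0.6 CPM in 3 libraries. Only 1 untreated library reaches it. Such entry favours a higher value in FIR cells, so the FOS call adds nothing. Of the other 9 members, 5 were higher, 4 of them at least 2 times, and 5 had all FIR libraries above all untreated ones. The median log2 fold change was 0.92 over the 10 members and 0.34 over those 9, beside 0.0082 over all genes. The members were chosen with earlier results of these data known, so these shares describe them and are no test.

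**Figure D1:**
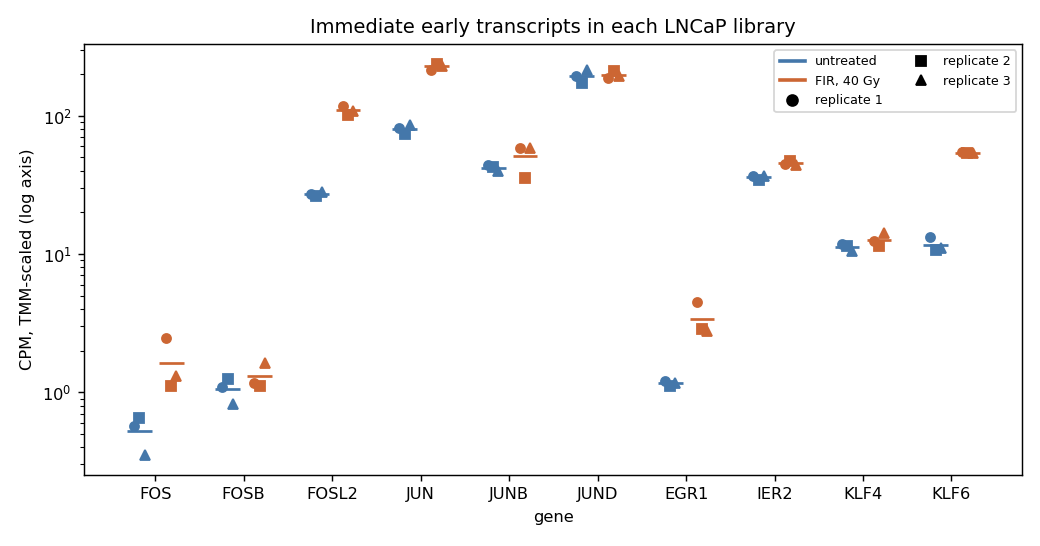
Level of each gene in each library, in CPM (read counts scaled to library size with TMM factors) on a log axis; blue is untreated, orange is FIR, marker shapes are replicates and short lines are group means. KLF6, FOSL2, JUN, EGR1, FOS and IER2 have all FIR libraries above all untreated libraries, while JUNB in FIR replicate 2 (35.6 CPM) falls below the untreated libraries.

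Read totals over the listed genes were 15703483 to 21004697 per library, and 3 reads correspond to 0.143 to 0.191 CPM. The prostate luminal identity of the line was visible in every library: all 9 markers listed had a row, with KLK3, named after its values were seen, at 2958 ± 163 CPM in untreated and 2282 ± 197 CPM in FIR cells (SD, n = 3). Of 6 immune markers 0 had a row, of 7 fibroblast markers 4 and of 5 endothelial markers 1. The summed level of the 4 fibroblast markers was 26.5 to 29.7 CPM in untreated and 14.4 to 19.0 CPM in FIR libraries, and that of the endothelial marker VWF 28.8 to 40.6 and 5.08 to 6.22 CPM. The fibroblast markers COL1A2, DCN and LUM and the endothelial markers PECAM1, CDH5, KDR and TEK had no row. Called higher were 6 luminal and 2 fibroblast markers and called lower 2 and 1, beside 25.4% higher and 23.4% lower over all genes. COL3A1, in the table only through the FIR group, stood at 0.401 CPM in untreated and 4.47 CPM in FIR cells, and COL1A1 at 24.0 and 5.33 CPM. The part of cell make-up in the results was not tested. In bulk RNA, more cells with a transcript and more transcript per cell cannot be told apart.

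The stretches around the starts of the genes are shown for the 5 members that at least doubled and for JUND, which did not pass, so that the elements known to drive such genes can be looked for. Each runs from 250 bases before to 50 bases after the RefSeq start, on GRCh38.p14, 5′ to 3′ on the gene's strand, and all 10 members matched an entry by symbol. Capitals mark matches on either strand to the CArG box, the core of the site bound by serum response factor, to the MEF2 box, to the AP-1 site TGANTCA, to TGACNTCA, the longer site of JUN and ATF proteins, and to the EGR site GCGNGGGCG.
EGR1 (chr5:138465229-138465528, + strand): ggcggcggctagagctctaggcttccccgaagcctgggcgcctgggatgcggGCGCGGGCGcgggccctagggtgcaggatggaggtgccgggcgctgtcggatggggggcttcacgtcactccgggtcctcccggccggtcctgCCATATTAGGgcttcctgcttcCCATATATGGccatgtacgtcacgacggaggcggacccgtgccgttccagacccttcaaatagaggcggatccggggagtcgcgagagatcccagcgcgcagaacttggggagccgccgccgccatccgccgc
JUN (chr1:58783998-58784297, - strand): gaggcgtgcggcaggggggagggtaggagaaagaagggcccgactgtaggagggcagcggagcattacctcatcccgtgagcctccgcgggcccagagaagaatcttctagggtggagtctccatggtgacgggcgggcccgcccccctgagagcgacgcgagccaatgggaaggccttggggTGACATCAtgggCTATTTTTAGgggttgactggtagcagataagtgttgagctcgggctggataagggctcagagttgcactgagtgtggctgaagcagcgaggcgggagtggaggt
FOSL2 (chr2:28392608-28392907, + strand): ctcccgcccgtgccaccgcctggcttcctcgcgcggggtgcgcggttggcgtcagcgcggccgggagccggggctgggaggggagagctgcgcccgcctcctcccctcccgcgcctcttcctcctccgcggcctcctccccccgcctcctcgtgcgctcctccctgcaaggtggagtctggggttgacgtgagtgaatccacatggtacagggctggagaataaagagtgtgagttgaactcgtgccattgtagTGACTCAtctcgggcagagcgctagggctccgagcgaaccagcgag
KLF6 (chr10:3785160-3785459, - strand): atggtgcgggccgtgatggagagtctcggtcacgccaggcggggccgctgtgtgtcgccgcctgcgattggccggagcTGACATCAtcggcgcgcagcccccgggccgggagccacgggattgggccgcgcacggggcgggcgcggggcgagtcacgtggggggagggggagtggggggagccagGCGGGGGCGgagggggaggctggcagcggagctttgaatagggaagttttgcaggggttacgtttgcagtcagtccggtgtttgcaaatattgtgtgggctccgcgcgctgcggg
FOS (chr14:75278578-75278877, + strand): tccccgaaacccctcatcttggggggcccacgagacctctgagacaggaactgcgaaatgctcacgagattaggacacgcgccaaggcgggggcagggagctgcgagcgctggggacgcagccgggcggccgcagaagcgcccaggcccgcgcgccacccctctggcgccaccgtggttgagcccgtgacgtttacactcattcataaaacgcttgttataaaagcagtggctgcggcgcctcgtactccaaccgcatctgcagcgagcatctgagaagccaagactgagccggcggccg
JUND (chr19:18281573-18281872, - strand): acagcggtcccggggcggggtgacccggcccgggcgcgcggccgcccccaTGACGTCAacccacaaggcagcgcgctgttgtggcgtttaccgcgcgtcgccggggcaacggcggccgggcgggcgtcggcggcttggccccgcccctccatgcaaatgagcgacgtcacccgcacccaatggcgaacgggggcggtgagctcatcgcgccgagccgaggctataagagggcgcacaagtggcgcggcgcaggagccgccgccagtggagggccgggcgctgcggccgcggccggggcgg

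EGR1 held 2 CArG boxes, CCATATTAGG and CCATATATGG, beginning 105 and 83 bases before the start, and 1 EGR site. A CArG box was found in 1.29% of 35116 RefSeq promoters of the same length. JUN held the site TGACATCA 67 bases before its start and a MEF2 box, CTATTTTTAG, 55 bases before it; the respective shares of all promoters were 7.72% for TGACNTCA and 0.572% for the MEF2 box. KLF6 held TGACATCA, beginning 172 bases before its start, and 1 EGR site, a motif found in 9.43% of promoters. FOSL2 held TGACTCA from the base 5 after its start, where 7.71% of promoters had TGANTCA. JUND held TGACGTCA 200 bases before its start, so TGACNTCA was present in 3 of 10 members, of which JUN and KLF6 rose and JUND did not pass. KLF4 held 1 EGR site. FOS, FOSB, JUNB and IER2 had no match in this window, and the matched motifs did not overlap one another. Sequence more than 250 bases before a start was not searched, so a gene without a match here may hold these elements further upstream. The deposited rows of FOSL2, JUN and KLF4 begin upstream of the whole window searched. Distances therefore hold for the RefSeq start and not for the start of the deposited row. A match describes letters, not binding.

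Among the FOS proteins, FOSL2 (ENSG00000075426.12, chromosome 2, 28392448 to 28417317 on hg38), also called FRA-2, carried most of the RNA. It stood at 27.2, 26.3 and 28.2 CPM in untreated replicates 1, 2 and 3 and at 118, 102 and 109 CPM in FIR replicates 1, 2 and 3. The FIR libraries lay far above all untreated libraries, with little scatter in either group. Its log2 fold change was 2.01 (SE 0.087, 95% interval 1.82 to 2.19, adjusted p = 8.0e-11), that is 4.02 times higher.

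FOS itself (ENSG00000170345.10, chromosome 14, 75278826 to 75282230), the founding AP-1 partner of JUN, was scarce. It had 11, 14 and 6 reads in untreated cells against 40, 17 and 21 reads in FIR cells, or 0.574, 0.650 and 0.350 CPM against 2.45, 1.10 and 1.32 CPM. Groups did not overlap, but FIR replicate 1 held more than the other FIR libraries. The fitted log2 fold change of FOS was 1.601 (SE 0.42, adjusted p = 0.0054), or 3.03 times with a 95% interval of 1.63 to 5.66 times. As FOS is in the table only through the FIR group, that value is a description, and its p is no support for a difference. Without FIR replicate 1 the value was 1.18 with an adjusted p of 0.045; over 14 alternatives the adjusted p was 0.0036 to 0.045. FOSB (ENSG00000125740.14, chromosome 19, 45467995 to 45475179), its close paralog, was also scarce at 21, 27 and 14 untreated and 19, 17 and 26 FIR reads. Its groups overlapped, and its log2 fold change of 0.29 had a 95% interval of -0.45 to 1.03 (adjusted p = 0.521). The whole FOSB span lies within an opposite-strand gene, ERCC1, at 36.7 CPM in untreated and 33.7 CPM in FIR cells. The 2 share 0 exonic bases. Use of strand in the counting is not given, so the source of the few FOSB reads is uncertain, and its flat result carries that limit.

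JUN (ENSG00000177606.6, chromosome 1, 58780788 to 58784327), a strongly activating AP-1 subunit, stood at 82.3, 74.4 and 85.7 CPM in untreated cells and at 215, 239 and 229.5 CPM in FIR cells. The groups lay well apart. It rose by 1.50 (SE 0.081, 95% interval 1.32 to 1.67, adjusted p = 1.1e-09), or 2.82 times.

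JUND (ENSG00000130522.5, chromosome 19, 18279760 to 18281622), a JUN protein known for steady expression and growth restraint, stood at 195, 173 and 214 CPM in untreated and at 187, 210.2 and 193 CPM in FIR cells. The groups overlapped almost fully. Its log2 fold change was 0.020 with a 95% interval of -0.16 to 0.20 (adjusted p = 0.871), so changes beyond 1.15 times in either direction lay outside the interval. JUNB (ENSG00000171223.6, chromosome 19, 12791486 to 12793315), often an antagonist of JUN, stood at 43.8, 42.8 and 39.9 CPM in untreated cells. In FIR cells it stood at 58.7, 35.6 and 58.0 CPM, with replicates 1 and 3 above and replicate 2 below every untreated library. Its log2 fold change of 0.27 (95% interval -0.040 to 0.58) did not pass (adjusted p = 0.141), and without FIR replicate 2 it was 0.47 with an adjusted p of 0.0012; over 14 alternatives the adjusted p was 0.0012 to 0.471. An opposite-strand gene, HOOK2, covers 259 of the 1830 exonic bases of JUNB and fell by 0.64 (adjusted p = 1.8e-05). Use of strand in the counting is not given in the sources used here, so the split of reads there is uncertain.

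**Figure D2:**
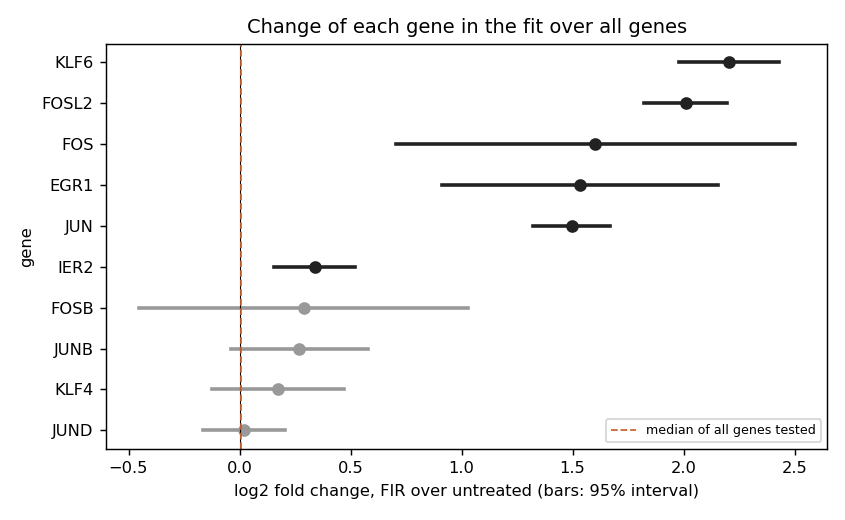
Log2 fold change of each gene, FIR over untreated, with its 95% interval from the edgeR fit; black passed an adjusted p of 0.05, grey did not, and the dashed line is the median of all genes. KLF6, FOSL2, FOS, EGR1 and JUN lie between 1.50 and 2.21, and JUND lies at 0.020.

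The make-up of the AP-1 pool was compared per length, in RPKM (TMM-scaled CPM per kilobase of exon, a level that can be set between genes). JUN made up 15.3%, 15.3% and 15.1% of the JUN-family RPKM in untreated replicates 1 to 3, against 31.4%, 33.8% and 32.4% in FIR replicates 1 to 3. JUND went from 69.3% ± 1.86 to 53.4% ± 2.69, and JUNB stood at 15.4% ± 1.74 and 14.1% ± 3.77 (SD, n = 3). Groups did not overlap for the JUN and JUND shares and overlapped for JUNB. The RPKM ratio of JUN to JUND went from 0.220 ± 0.0077 to 0.610 ± 0.0156 (SD, n = 3).

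FOSL2 made up 91.5% ± 2.22 of the FOS-family RPKM in untreated and 95.4% ± 0.978 in FIR cells (SD, n = 3), so the family total of 4.16 and 16.03 RPKM was almost all FOSL2. FOS-family RNA stayed the minor side of the pool: its ratio to JUN-family RNA went from 0.0278 ± 0.0019 to 0.0812 ± 0.0081, while the JUN-family total went from 150.0 ± 11.8 to 198 ± 3.75 RPKM (SD, n = 3). Of 13 such totals, shares and ratios, 11 had no overlap between groups, beside 56.9% of all genes taken singly. The 13 reuse the same genes, and shares within a family are bound to move together, so the 11 are not separate results. Each of these 11 had an exact two-sided permutation p of 0.10, the smallest that 3 against 3 libraries can give, and an adjusted p of 0.118 over the 13, so none could pass 0.05.

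**Figure D3:**
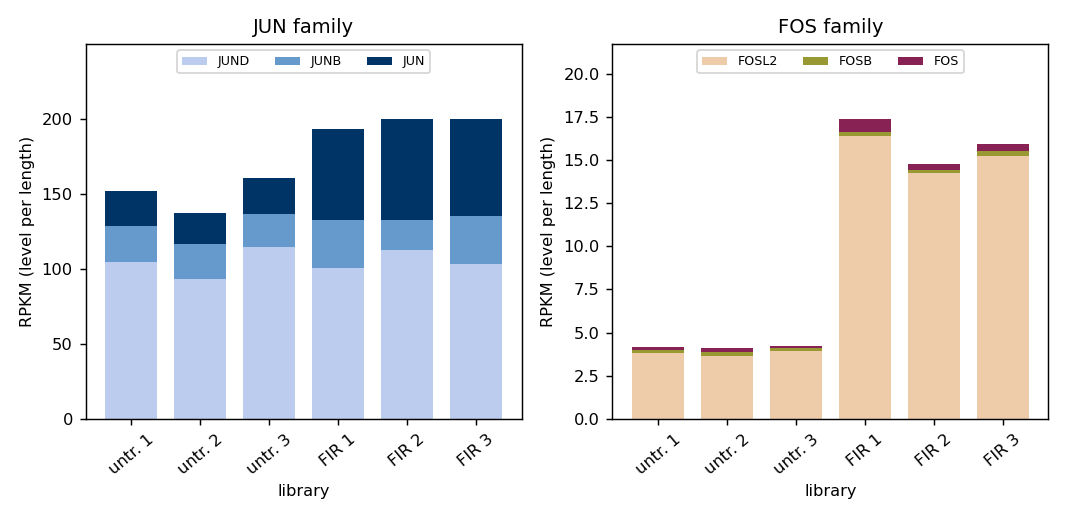
Stacked RPKM of the JUN-family genes (left) and FOS-family genes (right) in each library, with axes of different height that start at 0. The JUN block grows in each FIR library while the JUND block stays level, and the FOS-family column is almost wholly FOSL2 in all 6 libraries.

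EGR1 (ENSG00000120738.8, chromosome 5, 138465479 to 138469303), a zinc finger factor induced by mitogens, had 23, 24 and 20 reads in untreated and 73, 44 and 44 reads in FIR libraries. That is 1.20, 1.11 and 1.17 CPM against 4.47, 2.85 and 2.77 CPM, with no overlap and with FIR replicate 1 again above the other FIR libraries. EGR1 rose by 1.53 (SE 0.29, adjusted p = 4.7e-04), and without that library by 1.27 (adjusted p = 0.0047); over 14 alternatives the adjusted p was 9.3e-05 to 0.0047. EGR3, a paralog named after its values were seen, was scarcer still at 0.344 ± 0.245 and 1.07 ± 0.283 CPM (SD, n = 3), a fitted log2 fold change of 1.57 (SE 0.50, adjusted p = 0.017). EGR3 too is in the table only through the FIR group, so this is a description. In EGR3 the highest FIR library was replicate 2, not replicate 1. NAB1, a corepressor of EGR proteins, had a log2 fold change of 0.54 (adjusted p = 0.034), a call lost under 6 of 14 alternatives, with an adjusted p of up to 0.171. NAB2, the other corepressor and a known EGR1 target, named after its values were seen, was at 9.03 ± 0.753 and 8.28 ± 0.227 CPM (SD, n = 3; log2 fold change -0.12, adjusted p = 0.523).

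KLF6 (ENSG00000067082.15, chromosome 10, 3775996 to 3785281), a zinc finger factor described as a growth suppressor in prostate, stood at 13.2, 10.7 and 11.03 CPM in untreated cells and at 54.3, 53.7 and 53.5 CPM in FIR cells. The FIR values were nearly identical and far above the untreated ones. KLF6 had the largest change of the 10, at 2.21 on the log2 scale (SE 0.11, 95% interval 1.98 to 2.43, adjusted p = 2.6e-10). KLF4 (ENSG00000136826.15, chromosome 9, 107484852 to 107490482), an epithelial factor and stem cell factor, stood at 11.7, 11.5 and 10.5 CPM and at 12.4, 11.5 and 14.3 CPM. Its groups overlapped, with a log2 fold change of 0.17 (95% interval -0.12 to 0.47, adjusted p = 0.323). The RPKM ratio of KLF6 to KLF4 went from 0.618 ± 0.0593 to 2.55 ± 0.287 (SD, n = 3), so KLF4 was the more abundant of the pair in untreated cells and KLF6 in FIR cells.

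IER2 (ENSG00000160888.7, chromosome 19, 13150411 to 13154911), an early-induced nuclear protein, stood at 36.5, 34.4 and 36.9 CPM and at 45.0, 47.0 and 44.0 CPM. The groups did not overlap, but the rise was small, 0.34 (SE 0.085, adjusted p = 0.0041), or 1.26 times. GENCODE release 29 places an opposite-strand gene, AC011446.2, over 30.7% of the exonic bases of IER2. As with JUNB, use of strand in the counting is not given, so the source of reads there is uncertain, and the small rise carries that limit.

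Ordered by untreated RPKM, JUND led at 104, followed by JUNB at 23.0 and JUN at 22.8, whose ranges overlapped, then IER2 at 11.7, FOSL2 at 3.80, KLF4 at 3.07, KLF6 at 1.90, EGR1 at 0.370, FOSB at 0.190 and FOS at 0.165. The ranges of FOSB and FOS overlapped; the other neighbours did not. In FIR cells the order was JUND at 106, JUN at 64.3, JUNB at 27.7, FOSL2 at 15.3, IER2 at 14.7, KLF6 at 8.77, KLF4 at 3.47, EGR1 at 1.07, FOS at 0.509 and FOSB at 0.234, and only FOSL2 and IER2 had overlapping ranges. JUN thus stood above JUNB and KLF6 above KLF4 in FIR cells, with ranges apart. FOS also stood above FOSB there, but on only 17 to 40 reads against 17 to 26. As FOS is in the table only through the FIR group, its place in this order is a description.

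The members differed in how far the replicates scattered. The SD of log2 CPM among FIR libraries was 0.56 for FOS, 0.41 for JUNB and 0.37 for EGR1, but 0.012 for KLF6, 0.077 for JUN and 0.10 for FOSL2, beside a median of 0.14 over all genes. Among untreated libraries it was 0.38 for FOS, 0.049 for EGR1, 0.069 for JUNB and 0.16 for KLF6, beside a median of 0.15. These SDs include counting noise, which is larger for genes with few reads. FIR libraries held 17 to 40 reads of FOS and 44 to 73 of EGR1, but 829 to 888 of KLF6. The SDs therefore do not separate replicate scatter from read depth. The biological coefficient of variation fitted by edgeR was 0.259 for FOS, at percentile 94.2 of all genes, and 0.0752 for JUN, at percentile 13.7. It exceeded the trend for genes of like abundance in 3 of 10 members, FOS, JUNB and JUND, against 35.6% of all genes. For EGR1 it was 0.188 beside a trend of 0.197, and for KLF6 0.0824, at percentile 26.8. Across the 10 members, FIR replicate 1 was the highest FIR library in 5, replicate 2 in 3 and replicate 3 in 2, where the shares over all genes were 34.6%, 32.3% and 33.2%. In the 34 other immediate early genes described below, FIR replicate 1 was the highest FIR library in 11 and the lowest in 16 (34.6% of all genes). FIR replicate 2 was the lowest FIR library in 5 members (33.2% of all genes), with a median deviation of -0.12 from the group mean on the log2 scale. Untreated replicate 2 was the lowest untreated library in 6 members (28.3% of all genes). Heat shock transcripts, which also respond to handling, summed to 9055 to 10369 CPM in untreated and to 8762 to 9096 CPM in FIR libraries. Of the 12 measured, 0 rose, 4 fell and 8 did not pass, beside 25.4% higher and 23.4% lower over all genes. HSPD1 and HSPH1 fell by 0.60 and 0.56. Untreated replicate 3 was the lowest untreated library in 10 of the 12 heat shock genes (37.6% of all genes), with a median deviation of -0.10. Among the 10 members that library was the lowest in 4 and the highest in 4. The part of handling in the values of the members was not tested.

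As gene models the members are compact. Of the 10, 9 span under 10000 bases, as do 28.7% of all rows, and JUN, JUNB and JUND each consist of 1 exon block, as do 9.76% of all rows. FOSL2, the exception, spans 24870 bases in 7 exon blocks.

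**Figure D4:**
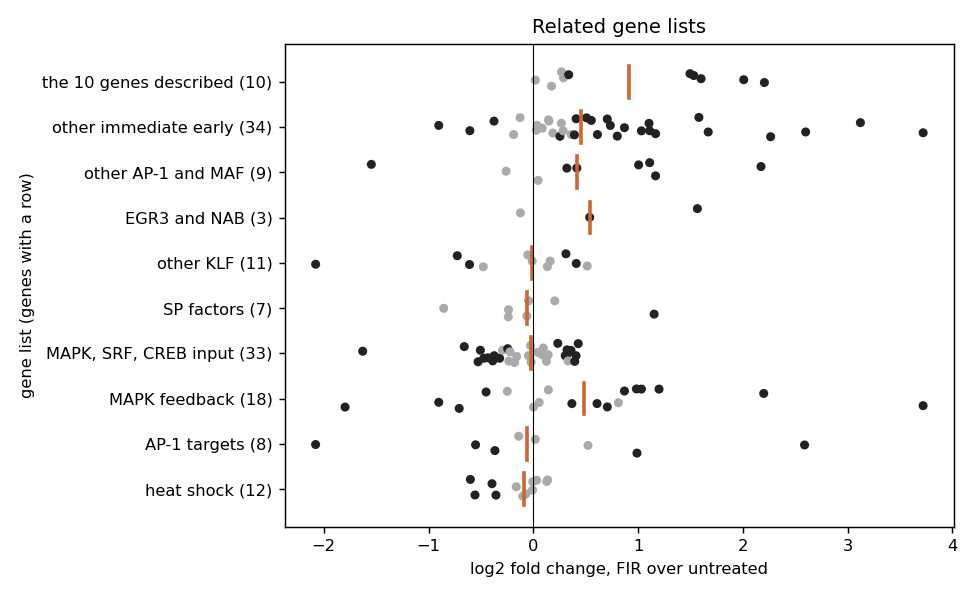
Log2 fold change, FIR over untreated, of the 10 genes described and of the measured genes in related lists; black points passed an adjusted p of 0.05, grey did not, and orange bars are list medians. The other immediate early genes lie mostly to the right of 0 (median 0.46), the SP factors and the heat shock genes around or just left of it (medians -0.061 and -0.085).

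Other immediate early genes were followed through a list chosen with earlier results known; some genes stand in more than 1 list. Of 34 measured members of 44 listed, 20 rose, 3 fell and 11 did not pass, with a median log2 fold change of 0.46. Over all genes 25.4% were called higher and 23.4% lower. ID1, an inhibitor of DNA binding by basic helix-loop-helix factors, rose by 3.72 (SE 0.48), from 5.37, 1.86 and 0.759 CPM to 54.6, 14.7 and 37.0 CPM. BTG2, an antiproliferative gene and p53 target, rose by 3.12 and stood at 385 to 486 CPM in FIR libraries. The list also held DUSP1, the phosphatase that shuts down MAP kinases, at 22.3 to 24.1 and 41.4 to 54.2 CPM (log2 fold change 1.03, adjusted p = 1.8e-06), and NR4A1, an orphan nuclear receptor of the early response, which fell by 0.61 (adjusted p = 0.0038). The early gene ZFP36, which binds AU-rich elements and speeds mRNA decay, had a log2 fold change of 0.035 (adjusted p = 0.866). DUSP1, NR4A1 and ZFP36 were named after their values were seen.

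Among other AP-1 partners and MAF proteins, 9 of 13 listed had a row: 6 rose, 1 fell and 2 did not pass. The shares over all genes were 25.4% higher and 23.4% lower. MAF rose by 2.17 (SE 0.21), from 15.6 to 33.0 CPM up to 86.4 to 147 CPM. JDP2, a repressor that pairs with JUN, fell by 1.55 (SE 0.15), from 29.7, 30.8 and 39.0 CPM to 13.5, 9.39 and 11.1 CPM. ATF3, a stress-induced JUN partner also named after its values were seen, rose by 1.11 (adjusted p = 3.5e-07). FOSL1, BATF, BATF2 and BATF3 had no row in the table and are not analysed here.

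Of 11 measured members of 16 other KLF genes listed, 2 rose, 3 fell and 6 did not pass, with a median of -0.010; over all genes 25.4% rose and 23.4% fell, so these few calls are no result about the list. KLF7 fell by 2.08 (SE 0.31), from 2.92 to 5.15 CPM down to 0.777 to 1.04 CPM, and KLF15, of metabolic tissues, fell by 0.73 (SE 0.12). Of the 7 measured SP factors, which bind the same GC-rich boxes, 1 (SP9) was called higher, 0 lower and 6 did not pass; SP9 is in the table only through the FIR group and was named after its values were seen. The most abundant, SP3, stood at 81.8 and 79.3 CPM (adjusted p = 0.695).

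Kinases and factors that carry signals to these promoters were called about as often as genes at large. Of 33 measured genes of the MAPK, SRF and CREB list, 8 rose, 10 fell and 15 did not pass, with a median of -0.026, beside 25.4% higher and 23.4% lower over all genes. MAP2K6, a kinase of the p38 branch, fell by 1.63 (SE 0.21) and MAPK9, which encodes the JUN kinase JNK2, fell by 0.66 (SE 0.091). SRF, which binds the CArG box and was named after its values were seen, had a log2 fold change of 0.085 (adjusted p = 0.457).

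Of 18 measured feedback inhibitors of MAPK signalling, 9 were higher, 4 lower and 5 did not pass, with a median of 0.49. SPRY4 is in the table only through the FIR group, and without it 8 of 17 were higher, with a median of 0.37. Among those called higher is DUSP8, named after its values were seen. Its row lies on the contig KI270830.1 and not on a numbered chromosome, so its reads may be incomplete. Over all genes 25.4% were higher and 23.4% lower. SPRY1, a sprouty protein induced by growth factor signalling, rose by 2.20 (SE 0.17), and the fitted log2 fold change of its paralog SPRY4 was 3.72 (SE 0.57), a description. SPRY4 stood at 0.730, 0.371 and 0.233 CPM in untreated and at 9.85, 1.55 and 6.54 CPM in FIR libraries. SPRY4, ID1 and the phosphatase DUSP2 were lowest in FIR replicate 2, as was JUNB. DUSP2, named after its values were seen, stood at 43.6, 12.1 and 31.8 CPM in FIR cells. Among the 34 other immediate early genes measured, however, FIR replicate 2 was the lowest FIR library in 11 and the highest in 11. Its shares over all genes were 33.2% lowest and 32.3% highest. Why these few genes were low in that library was not tested.

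Only 8 of 22 listed AP-1 target genes had a row, and 2 rose, 3 fell and 3 did not pass. PLAUR is in the table only through the untreated group, and of the other 7, 2 rose and 2 fell. Over all genes 25.4% rose and 23.4% fell, so these few calls are no result about the list. The cytokine LIF rose by 2.59 (SE 0.12), from 5.79, 7.34 and 7.53 CPM to 40.3, 40.8 and 43.3 CPM. The fitted log2 fold change of PLAUR, the urokinase receptor, was -2.08 (SE 0.43), from 1.83, 1.44 and 2.16 CPM to 0.184, 0.648 and 0.440 CPM. The matrix metalloproteinase genes MMP1, MMP3, MMP9 and MMP10 had no row and are not analysed here.

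The genes whose pattern over the 6 libraries was most like that of a member were found by the root mean square difference in log2 CPM after subtracting each gene's untreated mean. Closest to KLF6 among 11101 genes averaging 5 CPM or more were DTNA at 0.104, PCDHGA10 at 0.113 and KLK4 at 0.118, while FOSL2 lay at 0.180 from KLF6. Closest to EGR1 among 11102 genes were MAP9 at 0.126, ST3GAL5 at 0.133 and COL4A5 at 0.139, with FOS at 0.265 and JUN at 0.267. Closest to FOS were FAM13A-AS1 at 0.169, ZNF350 at 0.212 and CROT at 0.214, with EGR1 at 0.265. With 6 libraries in 2 groups, such likeness mainly reflects the size of the group difference.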

How the data were processed

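The authors deposited read counts per gene for 6 libraries, with gene lengths and, per the file headers, log2 fold changes and adjusted p-values of their own, which were not used for results. Another 12 columns of log values per library had headers that fit a replicate of either group, and they were not used. The submitters' processing notes list the tools bcl2fastq, STAR 2.5, featureCounts of Subread 1.6.2 and edgeR 3.20.8, and the build hg38. Annotation, strand setting and any filter by the authors are not given. All rows have 3 or more libraries at 0.6 CPM or above, so a low gene may be present only because 1 group raised it, here FOS, EGR3, SP9, SPRY4, COL3A1 and PLAUR (at most 1 library of the other group at that level).

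All 16311 genes were fitted on the deposited counts with edgeR 4.0.16 in R 4.3.3 (TMM, glmQLFit and glmQLFTest, no covariate), with Benjamini-Hochberg adjustment of p. The filterByExpr step (10 counts) took away nothing. SE was derived from the log2 fold change and F. RPKM was calculated from TMM-scaled CPM and deposited length. Libraries of a group differed beyond sampling noise (chi-square per gene 4.82 to 14.9).

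The members and lists were chosen with earlier results of these data known. Named genes were the 10 members, the 2 called genes per list that changed most at a mean of 1 CPM or above (failing that, its most abundant gene), and the 3 nearest in pattern to FOS, EGR1 and KLF6; others were named for overlapping a member or are marked where named. As alternatives, scaling was by RLE, upper quartile or library size, the test was DESeq2 1.42.0 or limma-voom (limma 3.58.1), the filter was none or 1 CPM in 3 libraries, replicate number was a block, or 1 library was omitted.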

Additional observations from a re-analysis of the deposited data

How the results depend on the processing

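The calls of 9 of 10 members stayed on their side of the threshold in all 14 alternatives; JUNB gained a call only without FIR replicate 2. JUND, not called, changed sign under library-size scaling (-0.035) and without 1 library (-0.069 to 0.071). The members called higher numbered 6 in each scaling, tool and filter and 6 to 7 without 1 library, with 0 lower throughout. Over all genes, 3401 to 4162 were higher and 3368 to 4346 lower. A fit that kept a replicate block called 3988 genes higher, 3668 lower and 6 members higher. The numbers were not taken as pairs: deviations from group means correlated at 0.073, -0.080 and -0.098 between libraries of equal number, and no FIR library correlated best with its own number (0.16, 0.25 and 0.19 with untreated replicates 2, 3 and 1).

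Counts of small lists moved. Other AP-1 genes lower numbered 2 under RLE scaling, library-size scaling and the filter of 1 CPM, and 1 to 2 without 1 library. EGR and NAB genes higher numbered 1 under library-size scaling, DESeq2 and that filter, and 0 to 2 without 1 library. Other KLF genes higher numbered 0 to 3 without 1 library. SP factors higher numbered 0 under DESeq2 and 0 to 1 without 1 library; SP factors lower numbered 1 under library-size scaling and 0 to 2 without 1 library. Other immediate early genes lower numbered 1 to 3, and MAPK, SRF and CREB genes higher 4 to 7, without 1 library. The cause was not tested. FOS, FOSB and EGR1 rest on 6 to 73 reads per library, which limits their precision.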
